A study of Mus musculus with 8 samples.

Results

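The synthesis of serine and its entry into folate metabolism were examined through 9 enzymes, Phgdh, Psat1, Psph, Shmt1, Shmt2, Mthfd1, Mthfd1l, Mthfd2 and Mtr. They were chosen by name, as the rows of the count table whose Ensembl identifier carries one of these symbols, and are 9 of the 54838 genes in the table. All 9 were among the 10911 genes with enough counts to be tested.

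To examine how inhibition of DHODH, an enzyme of pyrimidine synthesis, alters gene expression in leukemia cells in vivo, 3′ mRNA sequencing was performed on sorted acute myeloid leukemia (AML) cells carrying the RUNX1-RUNX1T1 fusion. The cells were of C57BL/6 background and had been transplanted into Ptprca recipients, a congenic strain that allows donor cells to be told from host cells. The labels give these recipients as sublethally irradiated, whereas the study's methods state irradiation only for its other leukemia models. Of the 8 samples, 4 came from mice given vehicle (Vehicle) and 4 from mice given the DHODH inhibitor AG636 by gavage at 100 mg/kg, 2 doses a day. Both groups therefore shared the fusion, the background and the transplantation and differed in treatment. The study describes treatment for 1 day before the sort and a gate on immature cKit-positive cells with little or no CD11b. The leukemia had been expanded from stored cells of a diseased animal, so the recipients carried related tumors and not independent ones. Bone marrow and spleen are both named as tissues, without a record of which sample came from which. It is also not stated that each sample was a separate mouse, so the p-values measure the spread between these samples. The study's legend for this experiment counts fewer mice in a group than there are samples here, so some samples may share a mouse, and the SDs and p-values would then rest on fewer independent animals.

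Serine can be made from an intermediate of glycolysis by the enzymes Phgdh, Psat1 and Psph, acting in that order. Serine hydroxymethyltransferases then split serine into glycine and a carbon unit, which is carried on tetrahydrofolate and used to build purines and thymidylate and to regenerate methionine. The folate reactions run in parallel in the cytosol and in mitochondria, with Shmt1 and Mthfd1 in the cytosol and Shmt2, Mthfd1l and Mthfd2 in mitochondria. Dividing blood cells and leukemias are known to draw on this pathway, and antifolate drugs act on it.

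The samples held 6120030 to 7162036 counts, so that 1 count was worth 0.145 to 0.16 CPM, where CPM are counts per 1000000 of the TMM-scaled library size. The 9 enzymes together took 0.101 to 0.131% of the counts in Vehicle samples and 0.0739 to 0.0936% in AG636 samples. Transcripts of immature cells were present, with Kit at 163 ± 9.62 CPM in Vehicle and 206 ± 41.0 CPM in AG636 samples (SD, n = 4 each), and none of the 7 tested markers of immature cells was called. Several markers that AML cells usually carry were low, with 3 to 33 counts of Mpo, 13 to 64 counts of Ptprc and 1 to 5 counts of Flt3 per sample. The mature myeloid markers Itgam and Ly6g were at or near 0, with at most 4 and 5 counts, and the list of mature myeloid markers summed to 91.4 to 142 CPM in Vehicle and 50.4 to 221 CPM in AG636 samples with none of 7 tested called. Markers of erythroid cells summed to 2331 to 6141 CPM in Vehicle and 4752 to 6235 CPM in AG636 samples, and 1 of 8 was called higher (Hbb-bt). Markers of B cells summed to 15.1 to 37.9 CPM in Vehicle and 24.6 to 109 CPM in AG636 samples, and 1 of 6 tested was called higher (Cd79a). Megakaryocyte markers summed to 12.0 to 18.1 and 13.1 to 61.0 CPM and T and NK cell markers to 2.43 to 9.18 and 4.79 to 20.1 CPM, with none called. The part of these other cells in the results below was not tested. Beside these marker counts, 8.49% of all tested genes were called lower and 5.47% higher by limma-voom.

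The 9 genes lie on 8 chromosomes, and the log2 fold changes given below were largest for Shmt1 on chromosome 11, Phgdh on chromosome 3 and Psph on chromosome 5. The promoters of these 3 genes are shown because they are the regulatory sequence of the members that differed most between the groups. Each window holds 300 bases around the start of transcription in RefSeq, most of them upstream, on build GRCm38.p6 and 5′ to 3′ on the gene's own strand, which is the minus strand for all 3. Capitals mark CCAAT, the letters of the CCAAT box, and GGGCGG, the letters of the GC box, or their reverse complements ATTGG and CCGCCC.
Phgdh, chr3:98339920-98340219: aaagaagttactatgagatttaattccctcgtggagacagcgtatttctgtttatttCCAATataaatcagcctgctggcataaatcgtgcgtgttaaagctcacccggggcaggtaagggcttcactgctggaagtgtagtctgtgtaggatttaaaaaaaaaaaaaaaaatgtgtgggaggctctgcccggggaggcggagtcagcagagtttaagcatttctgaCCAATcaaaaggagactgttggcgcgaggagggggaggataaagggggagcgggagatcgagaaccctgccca
Psph, chr5:129787204-129787503: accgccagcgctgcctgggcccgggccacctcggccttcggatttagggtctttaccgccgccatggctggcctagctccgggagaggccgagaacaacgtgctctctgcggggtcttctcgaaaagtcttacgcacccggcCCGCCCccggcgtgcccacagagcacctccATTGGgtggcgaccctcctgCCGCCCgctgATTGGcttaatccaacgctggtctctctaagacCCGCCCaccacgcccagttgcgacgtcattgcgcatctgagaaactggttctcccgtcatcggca
Shmt1, chr11:60811216-60811515: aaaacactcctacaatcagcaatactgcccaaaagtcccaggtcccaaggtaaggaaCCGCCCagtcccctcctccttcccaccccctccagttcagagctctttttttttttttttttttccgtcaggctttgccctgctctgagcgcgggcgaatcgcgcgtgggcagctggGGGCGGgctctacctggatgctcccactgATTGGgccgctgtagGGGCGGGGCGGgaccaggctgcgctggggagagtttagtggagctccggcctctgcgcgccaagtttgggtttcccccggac

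Phgdh had 2 matches to CCAAT, the nearer 23 bases before the start, and none to GGGCGG. The Psph window, all of which lies inside the span of the neighboring gene Cct6a on the opposite strand, held 2 matches to CCAAT and 3 to GGGCGG. Shmt1 had a single match to CCAAT and 4 to GGGCGG, of which the 2 nearest to the start overlap each other. Over the 9 enzymes, 7 had a match to CCAAT in a window of this kind, against 43.5% of the 8154 tested genes that could be matched, and 6 had a match to GGGCGG, against 70.3% of those genes. Over all 32851 promoter windows the shares were 37.4 and 35.7%. Searched on both strands, CACGTG, the E-box that Myc and other factors recognize, was in 12.1% of the tested genes and 7.15% of all windows. TGATGNAA, the letters of the element that Atf4 recognizes, was in 2.66% of the tested genes and 3.97% of all windows. Neither was found in the windows of the 9 enzymes, which says only that these letters are not in those 300 bases.

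Transcripts of several enzymes of the pathway were lower after AG636. Of the 9 enzymes, 5 fell by limma-voom with Benjamini-Hochberg adjustment over all genes tested (Shmt1, Phgdh, Psph, Shmt2 and Mthfd1) and 0 rose, and all 9 log2 fold changes were below 0. Among all tested genes 8.49% were called lower and 5.47% higher. Every AG636 sample lay below every Vehicle sample in 5 of the 9, compared with 12.9% of all tested genes. The median log2 fold change was -0.49 over the 9 enzymes and -0.01 over all tested genes. The count of 5 was 3 without Vehicle 1, 2 or 4 or without AG636 2, 2 without Vehicle 3 or AG636 1, 4 without AG636 3 and 5 without AG636 4. With library size alone as the scaling, 3 of the 9 were called lower, and the calls over all genes turned from 926 lower and 597 higher to 571 lower and 918 higher. In sorted bulk samples, fewer cells that express a gene and less RNA per cell cannot be told apart.

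**Figure D1:**
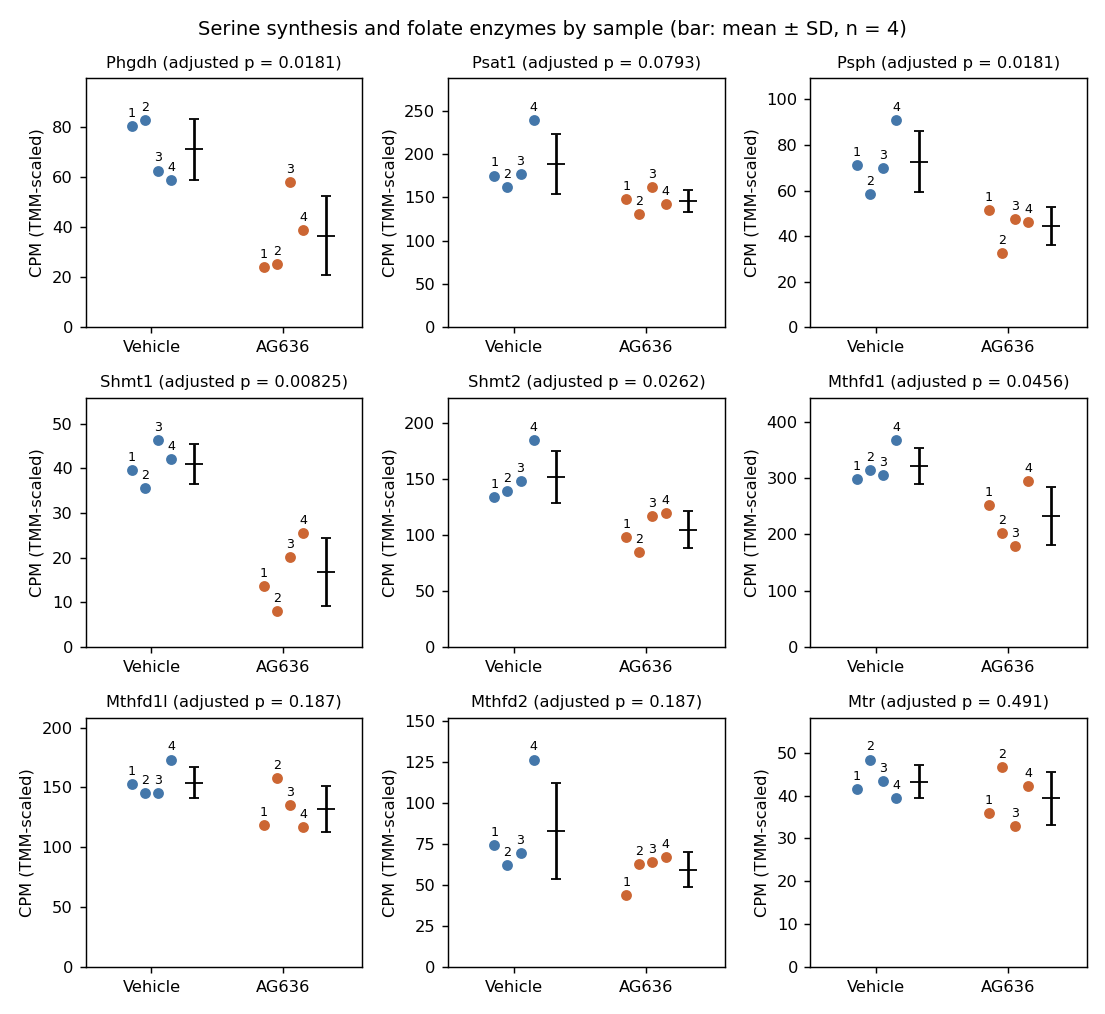
Level of each of the 9 enzymes in each sample, in CPM scaled to the TMM library size, with the sample number beside each point, the mean and SD of 4 samples as a bar and the limma-voom adjusted p above each panel. The groups do not overlap for Phgdh, Psph, Shmt1, Shmt2 and Mthfd1, and Vehicle 4 is the highest Vehicle sample in 6 of the 9 panels.

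Of the serine synthesis enzymes, Phgdh and Psph fell and Psat1 did not pass the test. Phgdh (ENSMUSG00000053398, chr3:98313170-98339990, minus strand), which commits the glycolytic intermediate 3-phosphoglycerate to serine, stood at 80.1, 82.7, 62.5 and 58.7 CPM in Vehicle 1 to 4 and at 23.9, 25.4, 57.9 and 38.7 CPM in AG636 1 to 4. All AG636 samples were below all Vehicle samples, but AG636 3 was only just below Vehicle 4. The mean went from 71.0 ± 12.1 to 36.5 ± 15.8 CPM (SD, n = 4 each), a change of -1.04 on the log2 scale (SE 0.24, 95% interval -1.57 to -0.51, limma-voom adjusted p = 0.0181). AG636 samples varied more than Vehicle samples, with a coefficient of variation of 43.2% against 17.1%. The call was lost without Vehicle 1, Vehicle 2 or AG636 1, at adjusted p-values of 0.0561, 0.0526 and 0.0516. The pseudogene Phgdh-ps1 had 0 counts in all samples.

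Psat1 (ENSMUSG00000024640, chr19:15904678-15947337, minus strand), the aminotransferase that takes its nitrogen from glutamate, was the most abundant of the serine synthesis transcripts. It stood at 175, 162, 177 and 239 CPM in Vehicle 1 to 4 and at 148, 131, 162 and 142 CPM in AG636 1 to 4. AG636 3 reached the level of Vehicle 2, so the groups overlapped. The change was -0.36 on the log2 scale (SE 0.12, adjusted p = 0.0793), and the adjusted p ranged from 0.0562 to 0.173 over the alternative settings. Without Vehicle 4 the change was -0.22 (adjusted p = 0.169).

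Psph (ENSMUSG00000029446, chr5:129765558-129787449, minus strand), the phosphatase that releases serine, stood at 71.4, 58.6, 69.9 and 91.0 CPM in Vehicle 1 to 4 and at 51.3, 32.4, 47.6 and 46.4 CPM in AG636 1 to 4. The groups did not overlap, and AG636 2 was the lowest sample. The mean went from 72.7 ± 13.5 to 44.4 ± 8.28 CPM, a change of -0.71 on the log2 scale (SE 0.16, adjusted p = 0.0181), and the adjusted p was 0.0504 without Vehicle 3. The 5′ end of Psph overlaps that of Cct6a, a subunit gene of the CCT chaperonin on the opposite strand, over 452 bases that lie 21440 bases from the 3′ end of Psph where these libraries are read. Cct6a also fell, from 342 ± 27.7 to 228 ± 27.3 CPM (log2 fold change -0.59, adjusted p = 0.00547).

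Summed over the 3 enzymes of serine synthesis, the level was 332 ± 39.3 CPM in Vehicle and 227 ± 32.5 CPM in AG636 samples, or 68.3% of the Vehicle mean. The 3 transcripts did not vary as a unit between samples. Within groups Psat1 and Psph varied together (Pearson r = 0.83 of log2 CPM after removal of the group means, 8 samples), a description that shares library and depth. Vehicle 4 was the highest Vehicle sample for Psat1 and Psph and the lowest for Phgdh.

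Both serine hydroxymethyltransferases fell. Shmt1 (ENSMUSG00000020534, chr11:60788104-60811718, minus strand), the cytosolic enzyme, stood at 39.6, 35.7, 46.4 and 42.1 CPM in Vehicle 1 to 4 and at 13.7, 8.14, 20.3 and 25.6 CPM in AG636 1 to 4. The groups were well apart, with AG636 2 the lowest and AG636 4 the highest treated sample. The mean went from 41.0 ± 4.51 to 16.9 ± 7.61 CPM, the largest change of the 9, a change of -1.38 on the log2 scale (SE 0.26, 95% interval -1.95 to -0.80, adjusted p = 0.00825). The call held under all 15 alternative settings, with adjusted p-values of 0.000149 to 0.0300. The depth behind these values was 232 to 300 reads per Vehicle sample and 51 to 177 per AG636 sample.

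The 3′ end of Shmt1 overlaps that of Smcr8 on the opposite strand over 184 bases, and whether strand was used in counting is not stated, so reads there cannot be told apart. Smcr8 was low, at 10.3 ± 1.998 CPM in Vehicle and 10.02 ± 1.32 CPM in AG636 samples (log2 fold change -0.02, adjusted p = 0.951). The 3 tested genes whose log2 CPM over the 8 samples was most like that of Shmt1, outside the 9 enzymes, were Prep, Thop1 and Tgs1. Their Pearson r was 0.996, 0.99 and 0.988 over all samples and 0.987, 0.98 and 0.959 within groups, and their log2 fold changes were -0.56, -0.90 and -0.33. As they were picked for the highest r among all tested genes, high r and fold changes below 0 follow from the choice. A shared regulation was not tested.

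Shmt2 (ENSMUSG00000025403, chr10:127517123-127522444, minus strand), the mitochondrial enzyme, stood at 133, 139, 148 and 185 CPM in Vehicle 1 to 4 and at 98.3, 84.4, 117 and 119 CPM in AG636 1 to 4. No AG636 sample reached the lowest Vehicle sample. The mean went from 151 ± 23.1 to 105 ± 16.5 CPM, a change of -0.53 on the log2 scale (SE 0.13, adjusted p = 0.0262). The call was lost with library size alone as the scaling (adjusted p = 0.0601) and without Vehicle 3, Vehicle 4, AG636 1 or AG636 2 (adjusted p = 0.0690, 0.0669, 0.0660 and 0.0513). The 3′ end of Shmt2 overlaps that of Ndufa4l2 on the opposite strand, which had 0 counts in all samples.

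As Shmt1 and Shmt2 catalyze the same reaction in different compartments, their balance was compared within each sample. The log2 ratio of Shmt2 to Shmt1 was 1.74, 1.95, 1.67 and 2.12 in Vehicle 1 to 4 and 2.82, 3.33, 2.51 and 2.21 in AG636 1 to 4. All AG636 samples were above all Vehicle samples, AG636 4 only narrowly. The mean was 1.87 ± 0.21 in Vehicle and 2.72 ± 0.48 in AG636 samples, a difference of 0.84. In linear terms, with the prior count of 2 included, Shmt2 stood at 3.18 to 4.36 times Shmt1 in Vehicle samples and 4.62 to 10 times in AG636 samples. Whether the overlaps at the 3′ ends of both genes altered these ratios was not tested. A two-sided exact permutation test over the 70 relabellings gave p = 0.0286, the smallest this design allows, and adjusted p = 0.0571 over the 2 ratios compared. An adjusted p under 0.05 was out of reach unless both ratios gave this smallest p.

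**Figure D2:**
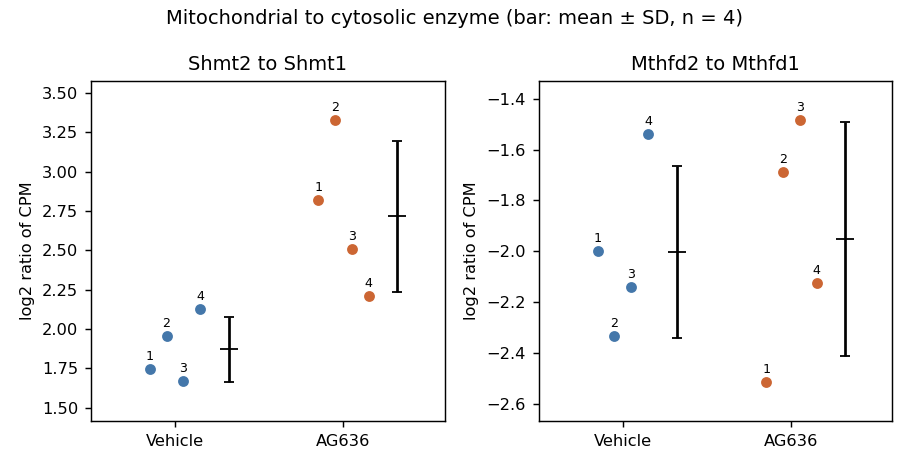
Log2 ratio of the mitochondrial to the cytosolic enzyme in each sample, for Shmt2 to Shmt1 and for Mthfd2 to Mthfd1, with the sample number beside each point and the mean and SD of 4 samples as a bar. The Shmt2 to Shmt1 ratio is higher in every AG636 sample, from 2.21 to 3.33, than in the Vehicle samples, from 1.67 to 2.12, and the Mthfd2 to Mthfd1 ratios overlap.

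Of the enzymes that interconvert the folate carbon units, Mthfd1 was called and the mitochondrial Mthfd1l and Mthfd2 were not. Mthfd1 (ENSMUSG00000021048, chr12:76255298-76319803, plus strand), the cytosolic enzyme with dehydrogenase, cyclohydrolase and formate ligase activities, was the most abundant of the 9. It stood at 299, 315, 306 and 368 CPM in Vehicle 1 to 4 and at 252, 203, 179 and 295 CPM in AG636 1 to 4. AG636 4 was within a few CPM of Vehicle 1, and the other AG636 samples were well below. The mean went from 322 ± 31.6 to 232 ± 51.6 CPM, a change of -0.49 on the log2 scale (SE 0.15, adjusted p = 0.0456).

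This call was lost in 10 of 15 alternative settings, more than any of the other 4. The adjusted p was 0.0511 with edgeR, 0.0543 with RLE factors and 0.0913 with library size alone. It was 0.0820, 0.0947, 0.0947 and 0.126 without Vehicle 1, 2, 3 and 4, and 0.0628, 0.0908 and 0.0702 without AG636 1, 2 and 3. Without AG636 4 it was 0.0151.

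Mthfd1l (ENSMUSG00000040675, chr10:3973118-4167081, plus strand), the mitochondrial ligase that releases formate, stood at 153, 145, 145 and 173 CPM in Vehicle 1 to 4 and at 118, 158, 135 and 117 CPM in AG636 1 to 4. AG636 2 exceeded all Vehicle samples but Vehicle 4. The change was -0.23 on the log2 scale (SE 0.11, 95% interval -0.47 to 0.01, adjusted p = 0.187).

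Mthfd2 (ENSMUSG00000005667, chr6:83305691-83325908, minus strand), the mitochondrial dehydrogenase and cyclohydrolase that is typical of embryonic and proliferating cells, stood at 74.4, 62.2, 69.3 and 127 CPM in Vehicle 1 to 4 and at 43.9, 62.7, 63.8 and 67.4 CPM in AG636 1 to 4. Vehicle 4 stood far above the other Vehicle samples, AG636 1 stood below all others, and the remaining 6 samples lay close together. The change was -0.44 on the log2 scale (SE 0.21, 95% interval -0.92 to 0.03, adjusted p = 0.187). Without Vehicle 4 it was -0.21 (adjusted p = 0.402). The log2 ratio of Mthfd2 to Mthfd1 was -2.0 ± 0.34 in Vehicle and -1.95 ± 0.46 in AG636 samples, a difference of 0.05 (two-sided exact permutation p = 0.886) that turned to -0.06, -0.04 and -0.11 without Vehicle 2, AG636 2 and AG636 3.

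Summed over the cytosolic enzymes Shmt1 and Mthfd1, the level was 363 ± 32.3 CPM in Vehicle and 249 ± 55.7 CPM in AG636 samples, or 68.6% of the Vehicle mean. The mitochondrial enzymes Shmt2, Mthfd1l and Mthfd2 summed to 389 ± 64.5 and 296 ± 24.6 CPM, or 76.3%. The difference between these shares was not tested.

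Mtr (ENSMUSG00000021311, chr13:12182712-12258113, minus strand), the cobalamin-dependent methionine synthase that passes the folate carbon to homocysteine, differed least. It stood at 41.5, 48.4, 43.5 and 39.4 CPM in Vehicle 1 to 4 and at 35.9, 46.6, 32.9 and 42.2 CPM in AG636 1 to 4, and the groups overlapped. The change was -0.14 on the log2 scale (SE 0.13, 95% interval -0.42 to 0.14, adjusted p = 0.491). It was -0.09 without Vehicle 2, -0.22 without AG636 2, -0.06 without AG636 3 and -0.07 with library size alone.

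**Figure D3:**
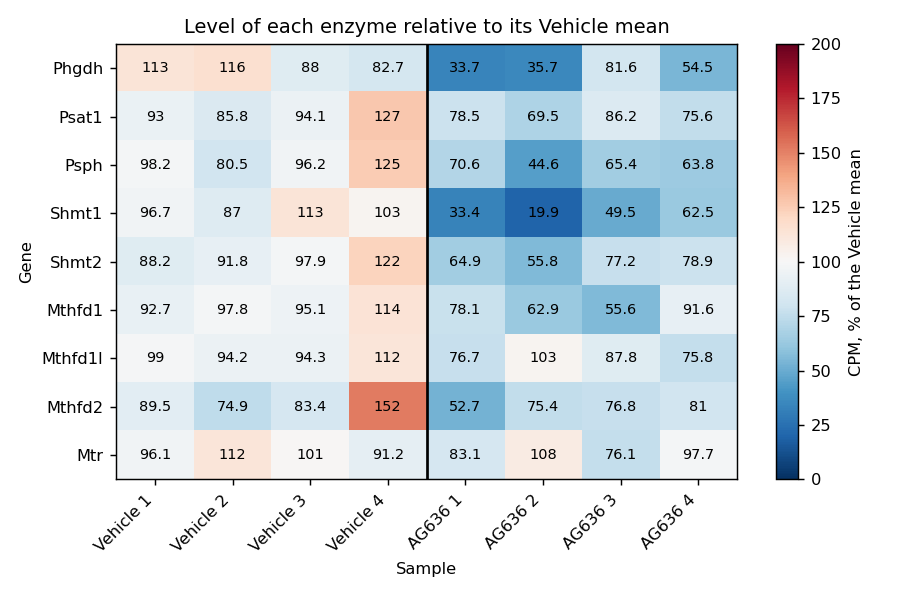
Level of each enzyme (rows) in each sample (columns) as a percent of the Vehicle mean of that enzyme, from CPM, with blue below and red above 100%. Shmt1 in AG636 2 (19.9%) is the lowest cell and Mthfd2 in Vehicle 4 (152%) the highest.

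As 3′ libraries give about a read per transcript whatever its length, the CPM levels of the 9 can be set in order without dividing by length. The order takes the counts as they are. Whether the neighbors that overlap the 3′ ends of Shmt1 and Shmt2 altered the counts of these genes was not tested. In Vehicle samples Mthfd1 was highest, with no sample in the range of another member. Psat1 (188 ± 34.7 CPM), Mthfd1l (154 ± 13.3 CPM) and Shmt2 came next, and neighbors in this order overlapped. Mthfd2, Psph and Phgdh likewise lay within each other's spread, and Mtr (43.2 ± 3.85 CPM) and Shmt1 were lowest and also within it. In AG636 samples the upper end kept this order, and Shmt1 was lowest at 16.9 ± 7.61 CPM, below Mtr at 39.4 ± 6.18 CPM. The mean Vehicle level placed the 9 between the 57.9 percentile (Shmt1) and the 95.8 percentile (Mthfd1) of the tested genes.

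Samples of a group were not alike across the 9. Vehicle 4 was the highest Vehicle sample for 6 of them, and the sum over all 9 was 1324 CPM in Vehicle 4 against 1048 to 1069 CPM in the other Vehicle samples. The sum was 784.7, 751, 816 and 894 CPM in AG636 1 to 4, below all Vehicle samples. As a share of the Vehicle mean, the AG636 samples ranged from 19.9% (AG636 2) to 62.5% (AG636 4) for Shmt1 and from 33.7% (AG636 1) to 81.6% (AG636 3) for Phgdh.

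The other genes of the pathway were read from 6 lists with 42 genes, of which 28 were tested. Of these, 11 fell and 2 rose by limma-voom, with a median log2 fold change of -0.18 and background shares of 8.49% and 5.47% as above. With library size alone as the scaling 7 fell and 2 rose, and 7 also fell without Vehicle 1, Vehicle 3, Vehicle 4 or AG636 1. The genes that rose were 1 without Vehicle 1, Vehicle 2, Vehicle 4, AG636 1 or AG636 2, and 0 without Vehicle 3. Of the 13 called genes, 6 kept their call in all 15 settings (Slc25a32, Mat2a, Gart, Tyms, Slc1a5 and Sfxn1). Fpgs lost its call in 1 setting, Ahcyl1 in 2, Gcsh, Atic and Sdsl in 6 each and Slc19a1 in 7, with adjusted p-values of at most 0.110.

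The folate-using enzymes of nucleotide synthesis all fell, 3 of 3, where 8.49% of all tested genes did so. Gart, which carries out several steps of purine synthesis, stood at 138, 130, 136 and 149 CPM in Vehicle 1 to 4 and at 74.8, 69.3, 88.2 and 87.0 CPM in AG636 1 to 4. The groups were far apart (log2 fold change -0.80, SE 0.10, adjusted p = 0.00178). Tyms, which makes thymidylate, went from 137 ± 13.5 to 91.7 ± 17.5 CPM (-0.59, adjusted p = 0.0160). Atic, which completes the purine ring, went from 157 ± 4.07 to 123 ± 13.9 CPM (-0.36, adjusted p = 0.0257).

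Of the genes of folate uptake and handling, 4 of 5 tested fell, where 8.49% of all tested genes did so. Slc25a32, the mitochondrial folate carrier, stood at a log2 fold change of -0.61 (adjusted p = 0.00910) and Fpgs, which adds the glutamate tail that keeps folate in the cell, of -0.58 (adjusted p = 0.0152). Slc19a1, the reduced folate carrier of the cell surface, went from 39.4 ± 3.38 to 27.2 ± 5.86 CPM (-0.55, adjusted p = 0.0328). The groups did not overlap for any of these 3. The folate receptor Folr1, at 10.3 ± 2.26 and 10.8 ± 4.46 CPM, did not pass the test (0.02, adjusted p = 0.964).

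Of the serine transporters and serine-degrading enzymes, 2 of 8 tested fell and 1 rose, where 8.49% and 5.47% of all tested genes did so. Slc1a5, a plasma membrane carrier of serine, glutamine and other neutral amino acids, stood at 114, 114, 119 and 111 CPM in Vehicle 1 to 4 and at 53.5, 47.6, 63.7 and 74.6 CPM in AG636 1 to 4. Vehicle samples were tight and all AG636 samples were far below (log2 fold change -0.95, SE 0.13, adjusted p = 0.00216). Sfxn1, the carrier that brings serine into mitochondria, went from 459 ± 25.0 to 306 ± 21.7 CPM (-0.59, adjusted p = 0.00249). Sdsl, a relative of serine dehydratase, went from 54.1 ± 8.23 to 77.7 ± 13.1 CPM (0.52, adjusted p = 0.0337), with overlap at Vehicle 1 and AG636 4.

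Of the methionine cycle, 1 of 6 tested genes fell and 1 rose, where 8.49% and 5.47% of all tested genes did so. Mat2a, which makes the methyl donor S-adenosylmethionine, stood at 770, 817, 810 and 792 CPM in Vehicle 1 to 4 and at 577, 607, 604 and 591 CPM in AG636 1 to 4. Samples of both groups were tight and well apart (log2 fold change -0.42, SE 0.07, adjusted p = 0.00481). Ahcyl1, a relative of the homocysteine-forming enzyme Ahcy that is better known for binding the inositol trisphosphate receptor, went from 90.5 ± 4.09 to 117 ± 9.18 CPM (0.37, adjusted p = 0.0181).

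Where 8.49% of all tested genes fell, 1 of 2 tested genes of the glycine cleavage system did. This was Gcsh, its lipoyl carrier protein, which went from 38.7 ± 5.71 to 24.5 ± 7.22 CPM (-0.68, adjusted p = 0.0416), with overlap at Vehicle 2 and AG636 4. The decarboxylase Gldc, which the system needs, had 0 counts and the aminomethyltransferase Amt at most 3. None of the 4 tested genes among the other folate interconversion enzymes passed the test. The smallest p of these was that of Mthfs, which recycles formyl folate, at 5.60 ± 1.69 and 7.53 ± 2.07 CPM (0.44, adjusted p = 0.304). Mat1a, Bhmt, Cbs and Sds, which are known mainly from liver, and Ftcd also had 0 counts in all samples.

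**Figure D4:**
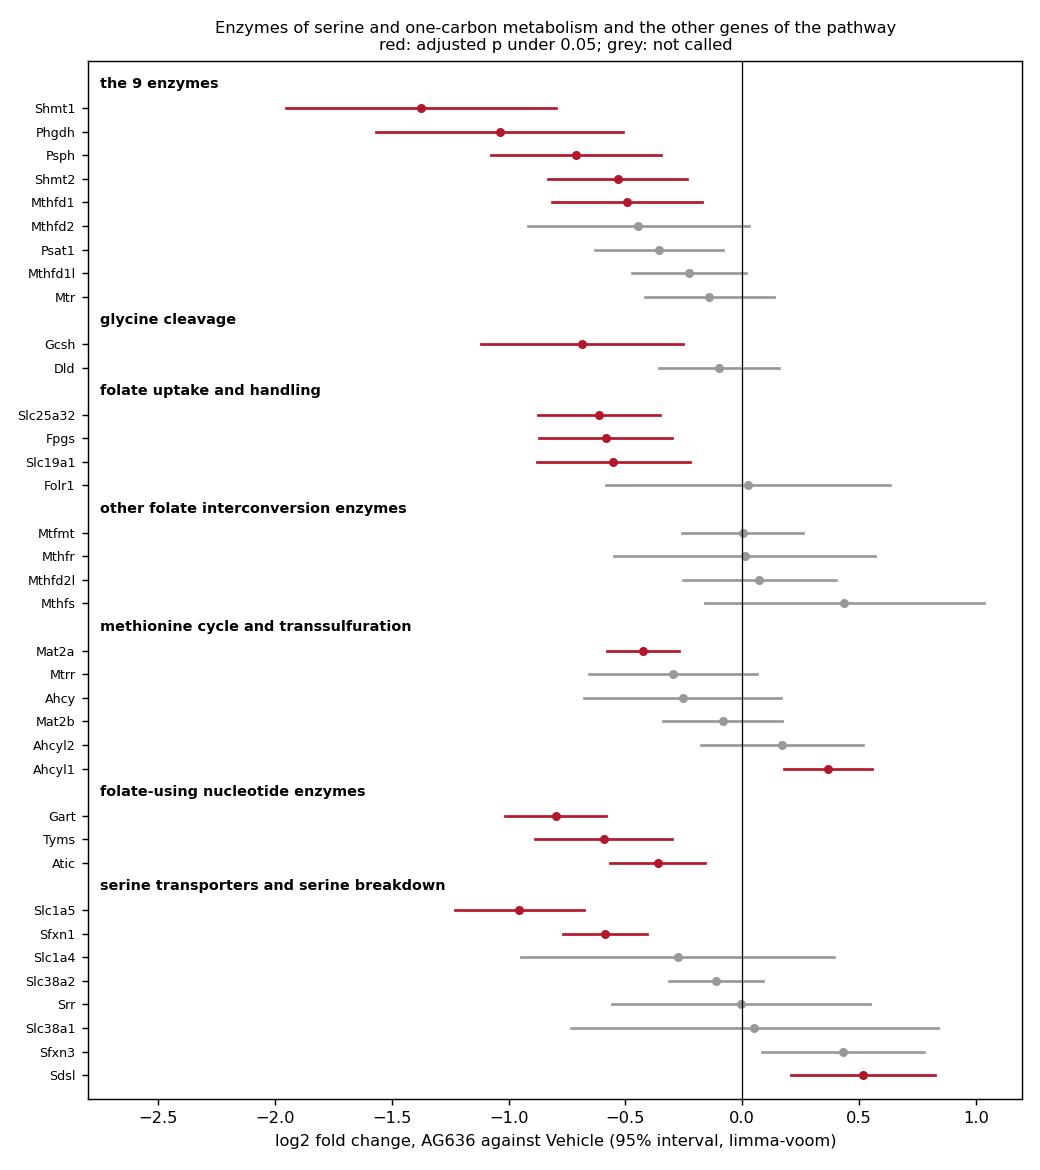
Log2 fold change of AG636 against Vehicle with its 95% interval from limma-voom, for the 9 enzymes and for tested genes of the other pathway lists, with red for adjusted p under 0.05 and grey for genes not called. The 9 enzymes lie between -1.38 (Shmt1) and -0.14 (Mtr), and Sdsl and Ahcyl1 are the called genes to the right of 0.

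Atf4 and Myc are transcription factors known to act on genes of serine synthesis and folate metabolism. Atf4 stood at 172, 170, 196 and 256 CPM in Vehicle 1 to 4 and at 123, 146, 136 and 178 CPM in AG636 1 to 4. The groups overlapped, and Vehicle 4 was again the highest sample (log2 fold change -0.44, SE 0.15, adjusted p = 0.0716). The adjusted p of Atf4 ranged from 0.0175 to 0.169 over the settings, and it passed with DESeq2, with the replicate block and without AG636 4. These are transcript levels, and protein was not examined here. In cultured cells of another of its leukemia models, the study reports more ATF4 protein after AG636. Of the 12 tested genes in a list of other Atf4-regulated genes, Atf4 itself included, 2 fell and 0 rose, with a median of -0.28, where 8.49% of all tested genes fell and 5.47% rose. They were Slc7a5, a carrier of large neutral amino acids (-0.76, adjusted p = 0.0431), and Aldh18a1, the first enzyme of proline synthesis (-0.39, adjusted p = 0.0372). Slc7a5 lost its call in 8 of the 15 settings and Aldh18a1 in 9, including the replicate block. Asns, which makes asparagine, did not pass (-0.09, adjusted p = 0.629). Myc went from 97.6 ± 19.3 to 56.6 ± 7.12 CPM without overlap (-0.77, SE 0.15, adjusted p = 0.00867), a call that held in all 15 settings. The study states, without naming a model, that AG636 did not affect the Myc transcript, which differs from the fall in these samples. It also reports less MYC protein after AG636, in the same cultured cells as for ATF4.

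As genes of this pathway are used by dividing cells, a list of proliferation genes was read beside them. Of 14 tested, 2 fell and 2 rose, where 8.49% and 5.47% of all tested genes did so, and the median log2 fold change was 0.15. The replication helicase subunits Mcm5 (-0.66, adjusted p = 0.00469) and Mcm2 (-0.39, adjusted p = 0.0352) fell, and the mitotic genes Ccnb1 (0.45, adjusted p = 0.0322) and Plk1 (0.39, adjusted p = 0.0444) rose. Mcm5 kept its call in all 15 settings, whereas Mcm2 lost it in 8, Plk1 in 6 and Ccnb1 in 5. The part of cell cycle position in the lower levels of the 9 enzymes was not tested.

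**Figure D5:**
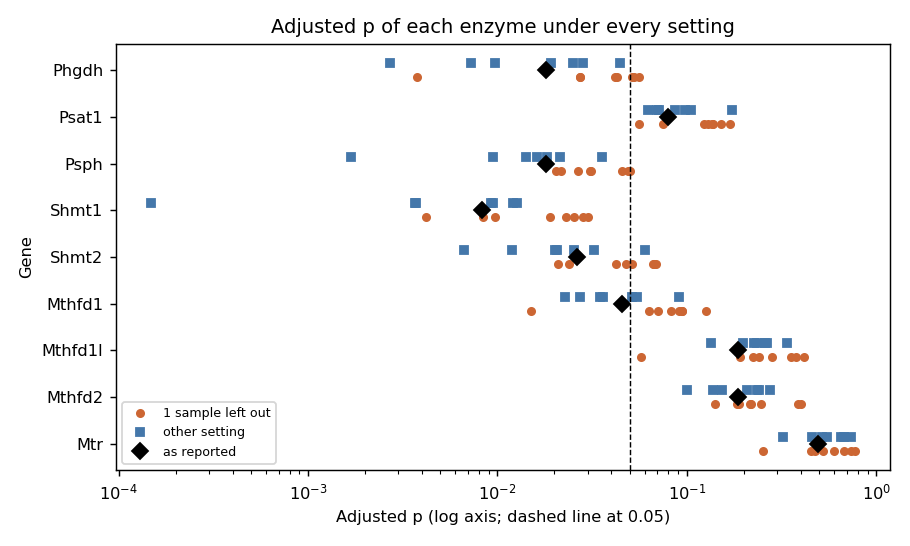
Adjusted p of each of the 9 enzymes (log axis, dashed line at 0.05) as reported (diamonds), under the 7 other tests, scalings, filters and fits (squares) and with 1 sample left out (circles). All points of Shmt1 are below 0.05, those of Phgdh, Psph, Shmt2 and Mthfd1 fall on both sides, and those of Psat1, Mthfd1l, Mthfd2 and Mtr are above.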

How the data were processed

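The processed data were gene counts from 3′ mRNA libraries (QuantSeq) of 4 Vehicle and 4 AG636 samples, grouped by their titles. Per the labels, the deposited values are raw counts that the authors made by trimming with cutadapt 1.9.1, mapping to mm10 (GRCm38) with HISAT2 2.0.4 and counting per gene with featureCounts of Subread 1.5.0-p3. Use of strand and treatment of multi-mapping reads are not given in the sources used here. No use of molecular identifiers is stated, so counts are reads and not molecules. Depth was 6120030 to 7162036 counts, and no replicate pair agreed within sampling noise by a chi-square test.

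Genes were kept by filterByExpr (minimum count 10), scaled by TMM factors and compared by limma-voom with group as the only term, since the study names limma (R 4.3.3 with edgeR 4.0.16 and limma 3.58.1). Tests were two-sided with Benjamini-Hochberg adjustment over 10911 genes and a threshold of 0.05, and each adjusted p in the text is of this kind unless named otherwise. Ratios used log2 CPM with a prior count of 2 and an exact permutation test. The fit was tested on simulated counts.

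Alternatives were edgeR's quasi-likelihood test, DESeq2 (1.42.0), sample quality weights, RLE factors, library size alone, no filter, the replicate block, a prior count of 0.5 for the ratios and each sample left out. The members, lists and tests were chosen with earlier results of these data known. Named outside the 9 enzymes are Atf4, Myc, the called genes of each list (at most 4, or the smallest p), the 3 genes most alike to the member with the smallest p, and markers or neighbors that bear on a value. Folr1, Asns and the genes at or near 0 counts were named after their values were seen. The values of 1 listed gene are not reported here. Positions are those of the count table and match GENCODE M21 for all 9.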

Additional observations from a re-analysis of the deposited data

Results flagged for a closer look

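Of the 22 sets of 4 values examined (the 9 enzymes and 2 ratios, each within Vehicle and within AG636), 1 held a sample far from the other 3. This was Mthfd2 in AG636 1, at 5.46 log2 CPM against 5.98 to 6.08 in the other AG636 samples, a gap of 0.834 of the group's range, which is just past Dixon's critical value for 4 samples. Chance alone gives about 1 such flag in 20 sets.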

How the results depend on the processing

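All 15 alternative settings gave all 9 enzymes a log2 fold change below 0, and none called a member higher. Of the 5 calls, 1 (Shmt1) held in every setting. The count of enzymes called lower was 3 with library size alone, 4 with edgeR and with RLE factors, 5 with DESeq2 and with no filter, and 2 to 5 when each sample was left out. Library size alone also moved the split of all calls from 926 lower and 597 higher to 571 lower and 918 higher (60.8 against 38.3% lower) and the median of all genes to 0.06. Genes called in all numbered 688 (without Vehicle 3) to 1706 (without AG636 3) with a sample left out, against 1523 in all. The pathway lists gave 7 lower genes with library size alone and 7 to 11 with a sample left out, and 1 higher gene without the filter and 0 to 2 with a sample left out. The cause of these shifts was not tested.

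The ratio of Shmt2 to Shmt1 differed by 0.64 to 1.01 with a sample left out. Exact permutation p was 0.0571 when any 1 Vehicle sample was left out and 0.0286 when any 1 AG636 sample was. With so few relabellings p moves in large steps, so these values are not read as a dependence on the Vehicle samples. The ratio of Mthfd2 to Mthfd1 changed sign without Vehicle 2 (-0.06), AG636 2 (-0.04) and AG636 3 (-0.11), within a range of -0.11 to 0.24. With the replicate number as a block (replicate block), 5 enzymes were called lower and 1446 genes in all, Atf4 passed and Aldh18a1 did not. The correlations of same-numbered samples were -0.14, 0.01, 0.20 and 0.14. Of the Vehicle samples, only Vehicle 3 was most like the AG636 sample of its own number, so the numbers are not read as pairs. With 51 counts in its lowest sample, Shmt1 has the largest counting error of the 9.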
